A study of Mus musculus with 6 samples.

Results

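GIMAP genes (GTPases of immunity-associated proteins) encode a family of guanine nucleotide-binding proteins of lymphocytes. Every gene of the deposited table whose symbol starts with Gimap was taken, which gave 9 of 25865 genes: the protein-coding genes Gimap1, Gimap3, Gimap4, Gimap5, Gimap6, Gimap7, Gimap8 and Gimap9, and the antisense gene Gimap1os. The samples were group 2 innate lymphoid cells (ILC2s, tissue-resident lymphocytes that make type 2 cytokines) sorted from the large intestine of C57BL/6 mice. Cells of both groups were expanded over 5 days in IL-33, IL-25, IL-7 and IL-2, each at 10 ng/mL, and RNA was sequenced from 3 vehicle-treated samples (Control) and 3 samples given toyocamycin for 16 h. Toyocamycin, a nucleoside resembling adenosine, blocks XBP1 splicing by IRE1 and also the maturation of ribosomal RNA. Its dose, the mice's age and number, and the separateness of replicate cultures were not stated in these sources. The family was put forward with the result of toyocamycin against Control known, so its changes are given as a description, with the share of all genes that moved beside them and without p-values.

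GIMAP proteins share a GTP-binding domain related to that of septins and dynamins, and several are anchored to membranes of the endoplasmic reticulum, Golgi, lysosomes or mitochondria. They are known for controlling the survival of T and B lymphocytes. Loss of Gimap5 causes a severe lack of lymphocytes in rats and mice, and Gimap1 is needed for mature T and B cells to persist. The genes form a tight cluster in mammals and are usually described as abundant in resting lymphocytes.

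In the GENCODE M21 annotation of GRCm38, the mm10 build named by the submitters, the 9 genes occupy 123.6 kb of chromosome 6, from 48647234 to 48770851. Their order is Gimap8, Gimap9, Gimap4, Gimap6, Gimap7, Gimap1os, Gimap1, Gimap5 and Gimap3. Gimap6, Gimap1os and Gimap3 lie on the minus strand and the other 6 on the plus strand. A read-through gene model, Gm28053, overlaps exons of Gimap7, Gimap1os, Gimap1 and Gimap5 and was not analysed here.

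RefSeq promoter sequences (GRCm38.p6, 250 bases before to 50 bases after each start) were available for all 8 protein-coding genes, with 2 starts for Gimap8. The 4 below stand for both directions of change: Gimap8 and Gimap4 fell with toyocamycin and Gimap9 and Gimap6 rose. Capitals mark matches on either strand to AGGAAG (the ETS family core with flanking bases), TGTGGT (RUNX), GATAA (GATA factors) or TGANTCA (AP-1).
Gimap8 promoter, chr6:48647111-48647410, plus strand: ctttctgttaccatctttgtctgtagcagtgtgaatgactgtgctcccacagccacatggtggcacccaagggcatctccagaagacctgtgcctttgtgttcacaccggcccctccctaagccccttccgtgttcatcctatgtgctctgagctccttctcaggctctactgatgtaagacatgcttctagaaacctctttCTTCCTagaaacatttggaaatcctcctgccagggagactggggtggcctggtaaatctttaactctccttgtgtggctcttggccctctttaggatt
Gimap4 promoter, chr6:48684328-48684627, plus strand: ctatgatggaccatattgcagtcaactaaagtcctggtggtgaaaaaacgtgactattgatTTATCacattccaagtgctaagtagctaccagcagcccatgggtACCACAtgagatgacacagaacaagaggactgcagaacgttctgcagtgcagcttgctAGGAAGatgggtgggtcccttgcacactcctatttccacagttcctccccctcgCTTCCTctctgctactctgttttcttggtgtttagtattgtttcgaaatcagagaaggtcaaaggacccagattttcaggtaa
Gimap9 promoter, chr6:48675885-48676184, plus strand: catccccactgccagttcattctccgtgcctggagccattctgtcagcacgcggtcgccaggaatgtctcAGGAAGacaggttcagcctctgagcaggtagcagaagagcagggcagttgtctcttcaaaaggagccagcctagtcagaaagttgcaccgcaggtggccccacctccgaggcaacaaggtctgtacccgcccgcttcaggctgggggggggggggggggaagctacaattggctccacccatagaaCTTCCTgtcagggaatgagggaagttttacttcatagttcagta
Gimap6 promoter, chr6:48708195-48708494, minus strand: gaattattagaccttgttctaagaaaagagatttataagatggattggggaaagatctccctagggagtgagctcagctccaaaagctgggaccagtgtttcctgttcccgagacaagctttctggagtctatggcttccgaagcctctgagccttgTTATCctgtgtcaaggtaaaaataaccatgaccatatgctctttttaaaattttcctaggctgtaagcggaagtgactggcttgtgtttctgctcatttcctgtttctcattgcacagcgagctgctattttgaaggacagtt

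AGGAAG was present in 7 of the 9 GIMAP promoters and in 35.4% of all 32851 promoters of the same length. It occurred in promoters of genes that fell (the second Gimap8 start, Gimap4, Gimap1, Gimap5, Gimap3) and of genes that rose (Gimap9, Gimap7). Gimap6 had no match to AGGAAG, although the shorter run GGAA occurs in its printed promoter with other flanking bases. TGTGGT was found in 3 GIMAP promoters (Gimap4, Gimap7 and Gimap1) against 16.8% of all, GATAA in 2 (Gimap4 and Gimap6) against 25.4%, and TGANTCA in 0 against 7.8%. A match is a run of letters, not a bound site. The 9 promoters held 2 to 8 CG dinucleotides each, where the median of all promoters was 7, and Gimap9 alone among them was above that median.

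With toyocamycin the family split in direction. Gimap8, Gimap3, Gimap4, Gimap5, Gimap1os and Gimap1 fell, and Gimap6, Gimap7 and Gimap9 rose. Gimap8 fell 17.9-fold, Gimap3 5.36-fold and Gimap4 5.35-fold, while the rises were 1.52-fold to 1.75-fold. All 9 genes passed the filter on low values, and between 92 and 13810 reads were counted for a member in any library. Values are normalised read counts (reads per gene divided by a size factor per sample). In the limma fit over all 16223 genes tested, 6 members were lower and 3 higher at an adjusted p under 0.05. Of all genes tested, 33.1% were lower and 32.8% higher by the same rule. In 9 of 9 members the 3 toyocamycin values did not overlap the 3 Control values, 6 of them lower and 3 higher, beside 69.1% of all genes tested (34.9% lower and 34.2% higher). Gimap8, Gimap3, Gimap4, Gimap1os and Gimap5 were at least 2-fold lower (log2 change of −1 or less), beside 20.5% of all genes called so, and 0 members were 2-fold higher, beside 17.0%. Refits without 1 sample and the other settings left every member on its side of zero and of the threshold. Less RNA per cell and fewer cells of a type that expresses a gene cannot be told apart in these bulk samples.

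**Figure D1:**
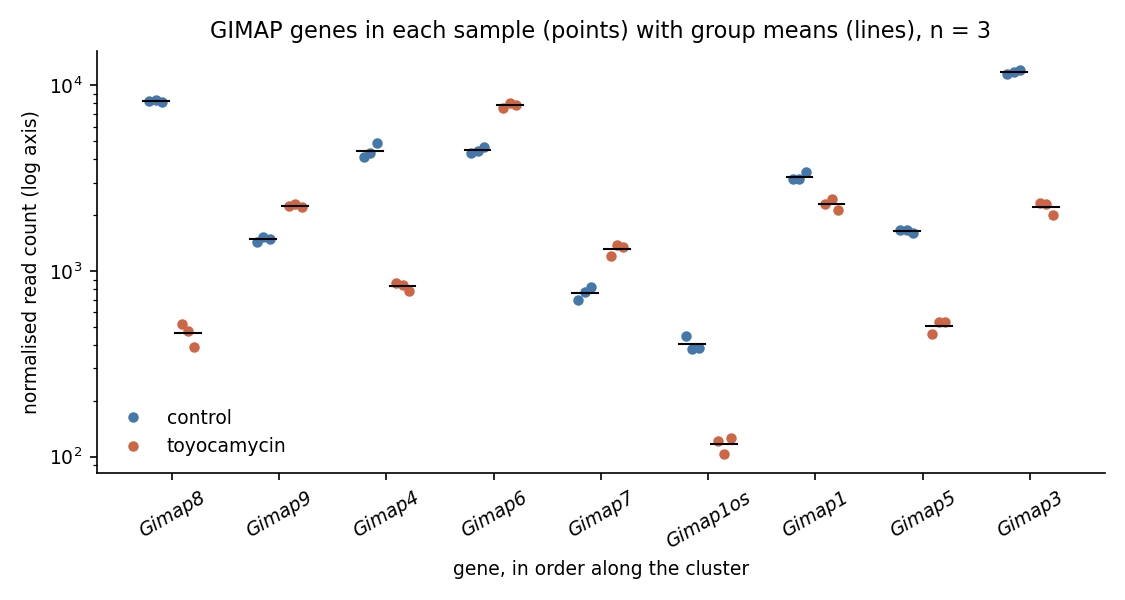
Normalised read count of each GIMAP gene (log axis) in the 3 Control and 3 toyocamycin samples, in order along the cluster; points are samples and black lines group means. Gimap8 drops from a mean of 8293 to 462.1, Gimap6 climbs from 4484 to 7841, and no gene's groups overlap.

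Gimap8 (48647234 to 48660875), the longest member, encodes a protein with several GTPase domains in a row. It stood at 8295, 8395 and 8189 normalised reads in Control and at 516.4, 477.7 and 392.2 with toyocamycin. The lowest Control value was 15.9 times the highest toyocamycin value. Its mean went from 8293 ± 103 to 462.1 ± 63.5 (SD, n = 3), a log2 change of −4.17 (SE 0.078). Of all genes tested, 0.265% had a more negative log2 change. Replicates were closest to each other in Control (coefficient of variation 1.25%) and spread most with toyocamycin (13.8%).

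Gimap3 and Gimap5 are the closest relatives in the family. Gimap5 (48746197 to 48754210) encodes a membrane protein that T cells need to survive, and Gimap3 (48764464 to 48770851) is known for influencing how mitochondrial DNA variants segregate in mouse blood cells. Gimap3 had the highest Control level of the family, at 11590.4, 11853 and 12121 in Control and 2331, 2285 and 2017 with toyocamycin. Gimap5 had 1661, 1674 and 1613 in Control and 458.3, 530.2 and 530.6 with toyocamycin. The lowest Control value was 4.97 times the highest toyocamycin value for Gimap3 and 3.04 times for Gimap5. The log2 change was −2.42 (SE 0.058) for Gimap3 and −1.70 (SE 0.079) for Gimap5, so their ratio moved as well. Gimap3 had 7.19 ± 0.284 times the reads of Gimap5 in Control and 4.40 ± 0.647 times with toyocamycin (n = 3 each), without overlap.

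Their coding sequences are 89.4% identical over 897 aligned bases, against 55.7% to 64.9% for the other pairs of coding members. Of the distinct 50-base stretches of their annotated transcripts, 8.15% in Gimap3 and 6.84% in Gimap5 also occur in transcripts of other genes, mostly in each other. The handling of reads matching several places is not stated, so the split of reads between Gimap3 and Gimap5 is uncertain. These percentages do not bound that uncertainty. Gimap3 had 7.19 times the reads of Gimap5 in Control, so wrongly assigned reads would weigh more on Gimap5. The level of Gimap5, its log2 change and the ratio of the 2 genes are less certain for that reason. Gimap8, Gimap9 and Gimap4 shared no such stretch, Gimap6 shared 0.17% and Gimap7 1.39%. Gimap1 and Gimap1os shared the most, at 35.53% and 32.64%, mostly with each other. Some stretches of Gimap1 also occur in genes outside the family.

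Gimap4 (48684549 to 48692060), whose product is known to speed the death of T cells, fell to a degree like that of Gimap3. Control samples had 4095, 4347 and 4884 normalised reads and toyocamycin samples 863.7, 843.5 and 785.6. The log2 change was −2.41 (SE 0.069), beside −2.42 for Gimap3. The 6-sample profiles of Gimap4 and Gimap3, each centred on its Control mean, differed by 0.062 (root mean square, log2), the smallest distance of any member to Gimap3. Gimap5 was at 0.525 and Gimap8 at 1.24.

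Gimap1 (48739054 to 48743795), required for the maintenance of mature B and T cells, fell least. Its values were 3119, 3132 and 3422 in Control and 2306, 2432 and 2131 with toyocamycin, a 1.41-fold fall (log2 change −0.49, SE 0.062). The groups were separate but near, with the lowest Control value 1.28 times the highest toyocamycin value. The antisense gene Gimap1os (48738346 to 48741444) had 449.4, 380.0 and 383.5 in Control and 121.5, 103.3 and 126.3 with toyocamycin (log2 change −1.78, SE 0.15). Gimap1os and Gimap1 share 1107 exonic bases on opposite strands, and the strand setting of the counting is not given, so reads of that stretch cannot be assigned to either. The ratio of Gimap1os to Gimap1 was 0.126 ± 0.017 in Control and 0.0515 ± 0.00845 with toyocamycin.

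The 3 members that rose lie near each other, but Gimap4, which fell, separates Gimap9 from the adjacent Gimap6 and Gimap7. Gimap9 (48676129 to 48679114) sits between Gimap8 and Gimap4, and Gimap6 (48701582 to 48708225) and Gimap7 (48718621 to 48724636) follow Gimap4. Gimap6, whose protein binds the autophagy protein GABARAPL2, had 4336, 4460 and 4656 normalised reads in Control and 7578, 8049.9 and 7895 with toyocamycin (log2 change 0.81, SE 0.051). Gimap7, a GTPase that hydrolyses GTP as a dimer, had 701.3, 768.8 and 825.9 in Control and 1208, 1381 and 1344 with toyocamycin (log2 change 0.78, SE 0.081). Gimap9 had 1431, 1526 and 1482 against 2236, 2293 and 2203 (log2 change 0.60, SE 0.060). Every toyocamycin value of these genes was above every Control value, by at least 1.44 times for Gimap9, 1.46 times for Gimap7 and 1.63 times for Gimap6. None of the 3 reached a 2-fold change. Gimap9 and Gimap7 are the most alike in coding sequence after Gimap3 and Gimap5, at 64.9% identity.

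**Figure D2:**
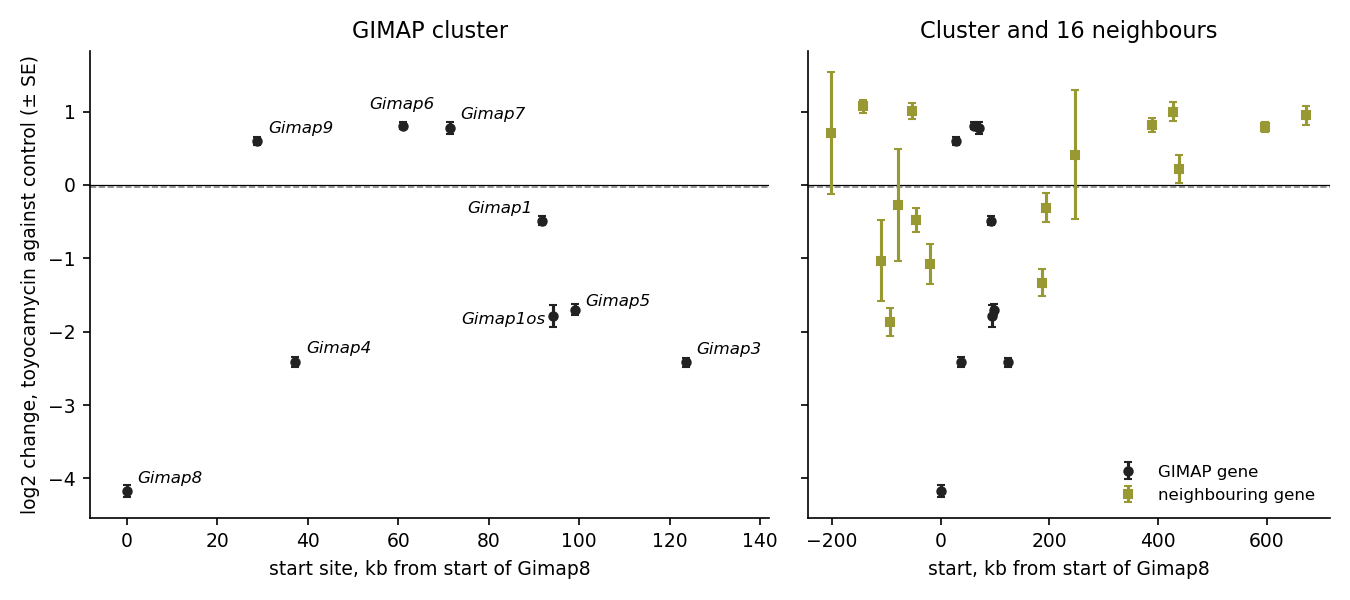
Log2 change with toyocamycin (± SE) by distance in kb from the start of Gimap8, for the GIMAP genes (left) and with their 16 neighbours as squares (right); the dashed line is the median of all genes tested (−0.03). Gimap8 (−4.17) and Gimap4 (−2.41) lie to either side of Gimap9 (0.60), and the fall of Gimap3 (−2.42) stands at the other end of the cluster.

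Directions alternated along the first part of the cluster: Gimap8 fell, Gimap9 rose, Gimap4 fell, and Gimap6 and Gimap7 rose. From Gimap1os to Gimap3 all 4 genes fell. Gimap9 and Gimap4, which moved in opposite directions, are separated by 5.43 kb.

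The table's genes next to the cluster moved in both directions too. Of the 16 nearest genes tested, 8 on each side, 6 were higher, 4 lower and 6 did not pass, beside 65.9% of all genes called in either direction. Before Gimap8, the pseudogene AI854703 (log2 change −1.08, SE 0.27, limma adjusted p = 0.00157), the zinc finger gene Zfp775 (−0.48, adjusted p = 0.014) and Lrrc61 (−1.87, adjusted p = 2.13e-08) fell. Repin1 (1.01, adjusted p = 6.59e-08) and Zfp862-ps (1.07, adjusted p = 1.58e-09) rose. After Gimap3, Tmem176b, which encodes a cation channel of intracellular membranes, fell 2.54-fold (adjusted p = 1.93e-06), and Gpnmb, Malsu1, Tra2a and Ccdc126 rose 1.73-fold to 2.01-fold (limma adjusted p 1.17e-06 or lower). The fall of Zfp775 was lost without Control replicate 2 (adjusted p = 0.0673), without toyocamycin replicate 1 (0.0559) and with quantile normalization (0.727). That of AI854703 was lost with quantile normalization (adjusted p = 0.144) and was −0.69 on the log2 scale without toyocamycin replicate 1. Neighbours had a median log2 change of 0.31, or 0.07 with equal totals, beside −0.03 and −0.35 for all genes tested. The median of the 9 GIMAP genes was −1.70.

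Together the 8 protein-coding members had 36193 ± 983 normalised reads in Control and 17696 ± 526 with toyocamycin, a 2.05-fold lower sum. As a share of each library they had 1544 ± 29.9 CPM and 592.4 ± 4.0 CPM, which counts them relative to all reads of the library. The make-up of the family's reads changed too, and shares and ratios within a sample are unaffected by scaling with 1 factor per sample. Gimap3 and Gimap8 gave 55.7% ± 0.962 of the GIMAP reads in Control and 15.1% ± 1.17 with toyocamycin. Gimap6, Gimap7 and Gimap9 together went from 18.6% ± 0.20 to 64.4% ± 1.60. Gimap6 alone made up 44.3% ± 1.20 with toyocamycin. Within single samples the ratio of Gimap6 to Gimap8 was 0.523, 0.531 and 0.569 in Control and 14.7, 16.9 and 20.1 with toyocamycin. Although Gimap1 fell in normalised reads, its share of GIMAP reads was higher with toyocamycin, at 12.9% ± 0.532 against 8.91% ± 0.273.

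**Figure D3:**
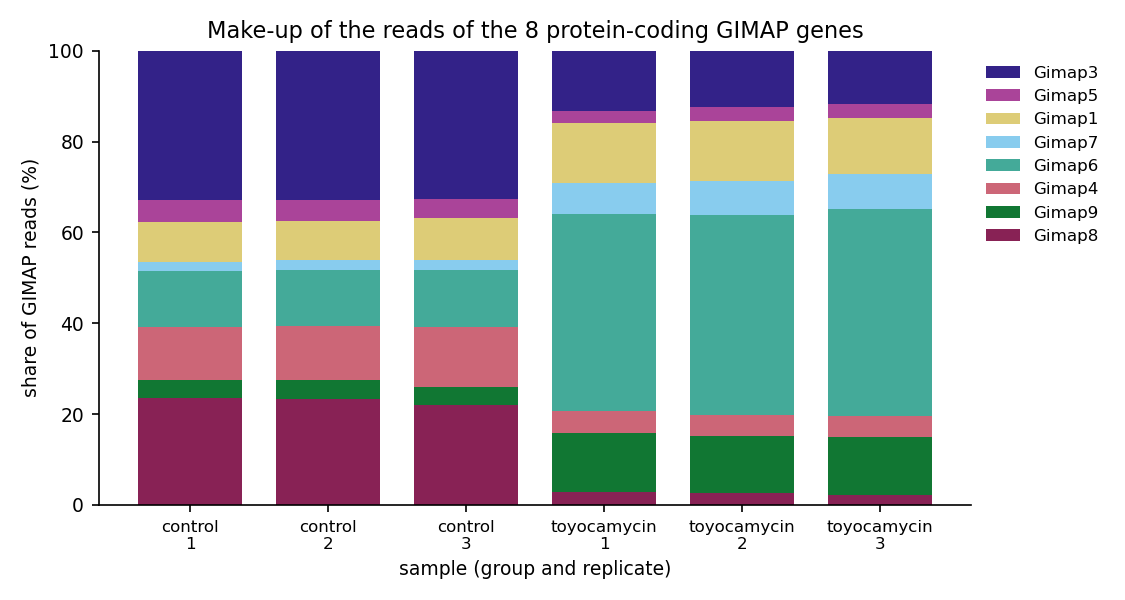
Share of the reads of the 8 protein-coding GIMAP genes (%) taken by each gene, as stacked bars for the 6 samples. Gimap3 and Gimap8 hold 55.7% on average in Control and 15.1% with toyocamycin, where Gimap6 holds 44.3%.

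Levels between genes were compared per kb of the longest coding transcript (the longest transcript for Gimap1os). In Control, Gimap3 led with 5527 ± 124 normalised reads per kb. Gimap8 (2624 ± 32.7), Gimap4 (2462 ± 223) and Gimap1 (2160 ± 115) came next, and neighbours in that order overlapped. Gimap6 (1411 ± 50.8), Gimap9 (1069 ± 34.5), Gimap5 (844 ± 16.3) and Gimap7 (603 ± 49.1) followed without overlap, and Gimap1os was lowest at 208 ± 20.1. With toyocamycin Gimap6 (2466 ± 75.7) led, ahead of Gimap9 (1621 ± 33.2) and Gimap1 (1533 ± 101), which overlapped. Gimap7 (1033 ± 71.7) and Gimap3 (1031 ± 79.1) also overlapped. Gimap4 (461 ± 22.5), Gimap5 (259 ± 21.3) and Gimap8 (146 ± 20.1) came below, and Gimap8 moved from the second place to the last of the coding members. The order depends on which transcript is used. Per kb of all annotated exons, Gimap6 (1283 ± 46.2) was above Gimap1 (1049 ± 55.8) in Control and Gimap4 (2418 ± 219) overlapped Gimap8 (2241 ± 27.9), while Gimap3 stayed first. With toyocamycin on that scale, Gimap8 (125 ± 17.2) and Gimap5 (122 ± 10.0) overlapped.

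**Figure D4:**
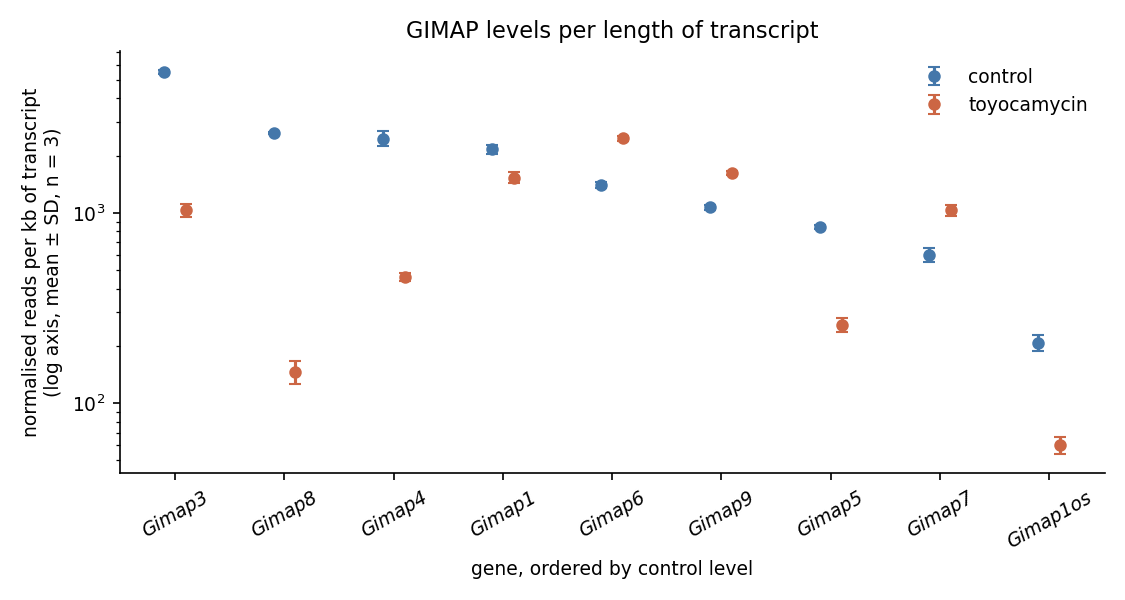
Normalised reads per kb of transcript (log axis, mean ± SD, n = 3) of each GIMAP gene in Control and with toyocamycin, ordered by Control level. Gimap3 is highest in Control (5527) and Gimap6 with toyocamycin (2466).

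The sizes of the members' changes moved with the scaling, and their directions did not. Normalised totals were higher with toyocamycin, and setting all samples to equal totals moved the median log2 change of all genes by −0.32, to −0.35. Under equal totals Gimap6 had a log2 change of 0.46, Gimap7 of 0.43 and Gimap9 of 0.25, and Gimap1 one of −0.84, Gimap4 of −2.76, Gimap3 of −2.77 and Gimap8 of −4.52. Relative to the median of all genes, Gimap9 stood 0.63 higher as deposited and 0.60 higher with equal totals, and Gimap1 0.47 and 0.50 lower. Equal totals apply 1 factor per sample, so these distances could hardly change. Under quantile normalization, where the median was 0.03, Gimap9 was at 0.35 and Gimap1 at −0.88. With quantile normalization Gimap6 was at 0.31 and Gimap7 at 0.80, so the order of the 3 rises was not stable.

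**Figure D5:**
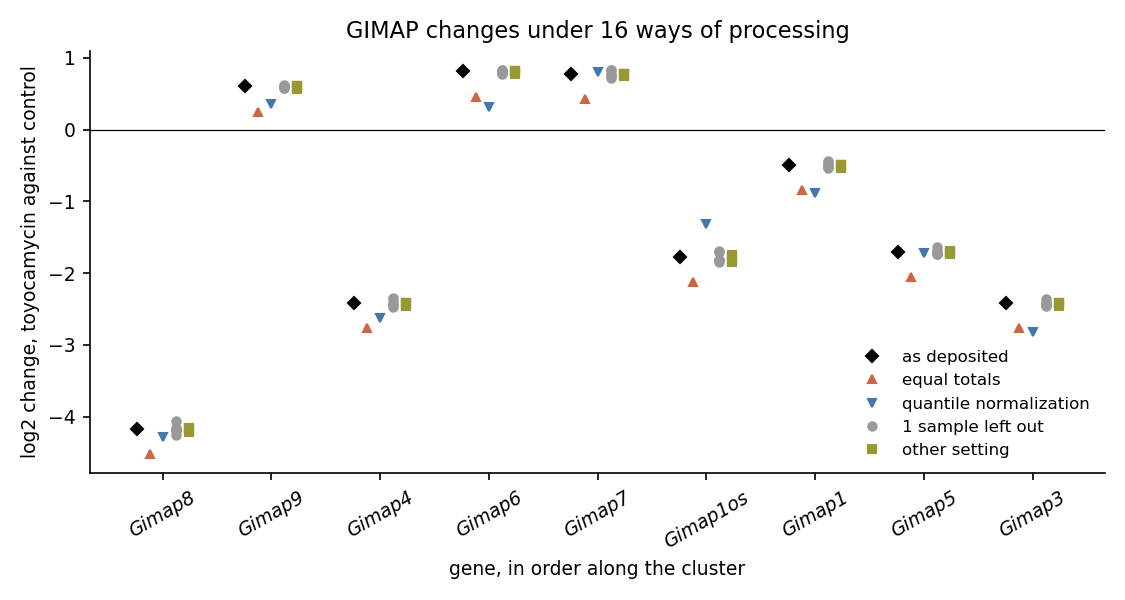
Log2 change of each GIMAP gene as deposited and under 15 alternatives, grouped by marker. Gimap8 runs from −4.52 to −4.06 and Gimap9 from 0.25 to 0.62, and no gene crosses zero.

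Genes whose products are reported to act with GIMAP proteins changed in both directions. Of 7 such genes, 4 rose, 2 fell and 1 missed the threshold, where 32.8% of all genes tested were higher and 33.1% lower. With quantile normalization 3 were higher and 3 lower. Their median log2 change was 0.52, with 0.17 under equal totals and 0.00 under quantile normalization. The median of all genes tested was −0.03, −0.35 and 0.03 in the same order. Gabarapl1, an ATG8-family gene of autophagy, rose 5.9-fold from 177.9 ± 13.2 to 1049 ± 80.9 (log2 change 2.55, limma adjusted p = 6.7e-15), and Gabarapl2 rose 1.94-fold (adjusted p = 4.7e-08). The survival gene Bcl2l1 rose 2.08-fold (adjusted p = 1.34e-13). Bcl2 and Bax were the members that fell.

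Quiescent and naive lymphocytes are the setting in which GIMAP genes are best known. Among 16 genes typical of them, 9 rose, 3 fell and 4 stayed under the threshold, beside the same 32.8% and 33.1% of all genes. Their median log2 change was 0.36, or 0.01 with equal totals, beside −0.03 and −0.35 for all genes tested. Il7r, the IL-7 receptor gene, fell 2.98-fold (adjusted p = 6.29e-17) and the antiproliferative gene Tob1 rose 2.81-fold (adjusted p = 4.52e-11). Bach2 rose from 1.21 ± 2.09, below the level of 3 reads, to 48.3 ± 14.6 (adjusted p = 1.15e-06). The transcription factor gene Klf2 was at 117.6 ± 7.01 and 118.1 ± 30.5 and did not pass.

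Related GTPase families were counted in the same way, with 32.8% of all genes higher and 33.1% lower. The median log2 change of all genes tested was −0.03, or −0.35 with equal totals. Of 11 septin genes tested, 4 were higher and 5 lower, near those shares (median −0.35, or −0.70 with equal totals). Septin5 fell 3.58-fold (adjusted p = 3.2e-10) and Septin10 3.05-fold (adjusted p = 2.13e-05), while Septin2 rose 2.21-fold (adjusted p = 5.21e-14). Of 19 interferon-inducible GTPase genes, 2 were higher and 9 lower (median −0.42, or −0.76 with equal totals), led by Gbp2 with a 6.38-fold fall (adjusted p = 1.41e-13), then Gbp9 (2.31-fold, adjusted p = 2.65e-10) and Irgm2 (2.18-fold, adjusted p = 1.5e-09).

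The gene outside the family with the profile nearest to that of Gimap3 was Limd2, at a root mean square difference of 0.035 (log2) over 6 samples among 9905 candidates. Pofut1 (0.043) and P2rx4 (0.050) came next, and 32 candidates lay within 0.1. Limd2 stood at 4586 ± 241 in Control and 848 ± 84.6 with toyocamycin.

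All 10 ILC2 markers passed the filter on low values. Of these, 4 were higher and 6 lower, beside 32.8% and 33.1% of all genes tested. They summed to 426627 to 439098 normalised reads in Control and 387148 to 420570.3 with toyocamycin. Normalised totals were higher with toyocamycin, so this sum was also a smaller share of them. Single ILC2 markers moved more than the sum. Rora rose 13.1-fold and Gata3 2.02-fold, while Il13 fell 6.95-fold, Arg1 5.1-fold, Areg 2.52-fold and Klrg1 2.41-fold. T cells and endothelial cells also express GIMAP genes. Of the 10 T cell markers tested, 2 were higher and 4 lower, beside the same 32.8% and 33.1% of all genes. Their sum was 6540 to 6846 in Control and 13757 to 15193 with toyocamycin. Cd28 and Lat made up most of it. Cd28 rose from 4298 ± 118 to 13134 ± 721 and gave most of the higher sum, while Lat fell from 2140 ± 254 to 1152 ± 107. The CD3 chain genes did not move together. Cd3g rose from 148.7 ± 13.6 to 198.7 ± 31.4 (limma adjusted p = 0.0415, not called with equal totals), while Cd3e fell from 35.2 ± 0.778 to 6.13 ± 3.25 (adjusted p = 0.00017) and Cd3d from 6.47 ± 3.61 to 0.88 ± 1.52 (adjusted p = 0.0209). Themis, a T cell signalling gene, fell from 46.0 ± 7.4 to 3.31 ± 3.69 (adjusted p = 1.65e-05). Cd8a was at 1.21 ± 2.09 and 1.69 ± 1.47, and Cd8b1 at 1.19 ± 1.03 and 2.04 ± 2.84. Cd4 was at 9.44 ± 2.58 and 10.1 ± 4.76, and Cd5 at 0.604 ± 1.05 and 3.74 ± 3.25. Of 8 endothelial markers 1 was lower, beside 33.1% of all genes. It was Pecam1, which fell from 1012 ± 39.7 to 565 ± 40.5. The sum of the 8 went from 1348 to 1645 in Control to 780.9 to 1140.1 with toyocamycin. Among B cell genes, Cd79b fell from 390.5 ± 53.4 to 183.7 ± 16.3 (adjusted p = 5.65e-07), moving with the lower GIMAP sum. Ms4a1 (2.06 ± 1.33 and 1.94 ± 1.75) and Pax5 (1.19 ± 1.03 and 0.88 ± 1.52) were below the level of 3 reads on average. No T cell or endothelial marker was at 0 in all samples. Sums for NK cells and ILC1s were 7258 to 7652 and 9534 to 10889.6, mostly Gzma, with Klra1 and Klra8 at 0; those for ILC3s, for macrophages and dendritic cells and for epithelial cells were below 1557 in every sample. The part of such cells in the GIMAP values was not tested.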

How the data were processed

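RNA sequencing of 3 Control and 3 toyocamycin samples was analysed. Although named for FPKM, the table holds in each column whole multiples of the value of 1 read, the same for every gene; at a tolerance of 0.01 reads, 100% of values came out whole. The authors' deposited signal values were therefore taken as reads divided by a size factor per sample (0.7572 to 1.1808). Per the submitters' processing notes, cutadapt 4.7, FastQC and build mm10 were used; the aligner, counter, strand setting and annotation are unstated there. Recovered totals were 22.3 M to 36.7 M reads, and 3 reads correspond to 2.54 to 3.96 normalised reads. Within groups, chi-square divided by its degrees of freedom was 3.96 to 7.76. Replicates thus differed by more than repeated sequencing of 1 library would give, which does not show how they were prepared.

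Log2(normalised read count + 1) was fitted for the 16223 genes whose 6-sample mean reached 1, with limma 3.58.1 (R 4.3.3) and a mean-variance trend, two-sided, with Benjamini-Hochberg adjustment at 0.05. The pseudocount makes log2 changes understate those of low genes. Since no source ties replicates to separate cultures, p-values reflect sample spread alone, possibly technical. The fit was tested on simulated data with far fewer changed genes than were called here, so that test does not cover changes of this breadth. Folds are ratios of group means. edgeR 4.0.16 and DESeq2 1.42.0 on the recovered reads, other pseudocounts, filters and scalings, a replicate block and leaving out each sample were alternatives. Gene models are GENCODE M21; coding sequences were aligned with Biopython 1.88.

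The members, gene lists and tests were chosen with earlier results of these data known. All GIMAP genes, the called neighbours (16 nearest tested genes) and up to 3 called genes with the largest log2 change per functional list are named. Bcl2, Bax, Klf2 and the cell type markers were named in addition, after their values were seen; 1 marker is not reported here. Nearness to Gimap3, the member with the highest mean, was ranked among genes with a mean of at least 100.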

Additional observations from a re-analysis of the deposited data

How the results depend on the processing

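The 9 GIMAP genes kept their direction and their side of the threshold in all 15 alternatives, and 6 were lower and 3 higher in each. The count of members without overlap was 9 under every alternative scaling, filter and set of samples for which it was computed. Without 1 sample the log2 change of Gimap8 ran from −4.26 to −4.06 and that of Gimap1, the smallest fall, from −0.54 to −0.44. Gimap1os ran from −2.13 with equal totals to −1.31 with quantile normalization. Among the 16 neighbours, 2 in place of 4 were lower with quantile normalization, 6 with equal totals and 3 to 4 without 1 sample. Over all genes, 4039 were higher and 6895 lower with equal totals, in place of 5316 and 5374. In the gene lists, 1 interferon-inducible GTPase gene was higher with equal totals and 1 with quantile normalization, in place of 2, and 2 septin genes in place of 4 with quantile normalization. The cause of these shifts was not tested. Same-numbered Control and toyocamycin samples did not deviate together (correlations −0.04, 0.07 and −0.14 across genes), so the numbers were not taken to pair them. With the replicate block 5272 genes were higher and 5298 lower, and the GIMAP counts were 3 and 6. Depth does not limit the members, the lowest of which had 92 reads in a library.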

Other observations

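The 3 members that rose share a gene structure that the members that fell do not have. The longest coding transcripts of Gimap6, Gimap7 and Gimap9 have 2 exons each, those of Gimap4, Gimap1 and Gimap5 have 3, and those of Gimap8 and Gimap3 have 5; Gimap1os has 1. This was noticed after the changes were known. Of 756 tested genes with 2 exons, 30.8% were higher and 27.9% lower (median log2 change 0.06), beside 33.5% and 34.9% of all 14289 genes with a gene model (median −0.04). This difference was not tested.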
